A study of Drosophila melanogaster with 4 samples.

Results

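The nuclear genes of oxidative phosphorylation were examined in single-cell RNA sequencing data from testis tumors of Drosophila melanogaster. The group comprised every gene whose symbol begins with ND-, UQCR, ATPsyn or COX followed by a digit, which gave 79 genes of 17558 features in the count table. By symbol, 40 of them encode subunits of complex I, 9 of complex III, 15 of complex IV and 15 of the ATP synthase. They split into 58 main copies and 21 paralogs whose symbols carry an L. Of the paralogs, 14 have the symbol of another member plus L (COX4L beside COX4), 3 carry a digit as well (ND-51L1, ND-51L2 and COX7AL2), and 4 belong to main copies with symbols outside the rule. Those 4 are COX6AL and COX6AL2 (main copy levy), COX6CL (main copy cype) and ATPsynepsilonL (main copy sun). The rule used symbols only and no measured value, but earlier results of these data were known when it was chosen.

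Oxidative phosphorylation is carried out in the inner mitochondrial membrane. Complex I takes electrons from NADH, complex III passes them to cytochrome c, complex IV hands them to oxygen, and the proton gradient built on the way drives the ATP synthase. Most subunits are encoded in the nucleus and a small set in the mitochondrial genome. In the fly testis, developing sperm cells fuse and elongate their mitochondria, and the fly genome holds many duplicated mitochondrial genes that are known for expression in the testis.

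Tumors were made by overexpression of Unpaired (Upd), the ligand of the JAK-STAT pathway, which keeps both kinds of testis stem cell, those of the germline (GSC) and those of the somatic cyst lineage (CySC). The Nanos-Upd flies were y[1] w[1118] P{hs70FLP} with P{w[+mC]=GAL4::VP16-nanos.UTR} over UAS - Upd, so that Upd was driven in the germline. The TrafficJam-Upd flies were w[1118] with traffic Jam - GAL4 over UAS - Upd, so that Upd was driven in cyst cells. Both genotypes carried a single copy of UAS-FRT-H3-GFP-FRT-H3-mKO, there was no tumor-free group, and each library pooled about 18 to 20 pairs of testes. Crosses for all libraries were kept at the same temperature. Fly ages were not given in the sources used here. Each tumor type had 2 libraries. Nothing says what separates the replicates of a type, so p-values measure the spread between these libraries, which may be technical.

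The 4 libraries held 13190124 to 33499923 unique molecular identifiers (UMIs), each standing for 1 captured transcript, in 20618 cells. The authors assigned cells to the classes GSC-like (10889 cells), CySC-like (8261), spermatocyte (624), somatic (515) and muscle (329). Levels are given in CPM, the usual depth-scaled unit, of the sum over a class in a library, or as percent of that sum. Transcripts are counted at their 3' end, once per molecule, so no scaling by gene length was applied. The smallest sum, the somatic class of TrafficJam-Upd replicate 1, held 60 cells and 233141 UMIs, in which 1 UMI is worth more than 4 CPM. Fewer mitochondria per cell and less of these transcripts per mitochondrion cannot be told apart here. Between libraries, 35 cell barcodes were shared. Markers went with the names of the GSC-like, CySC-like and muscle classes. In the spermatocyte class, 13 spermatid markers made up 1.56 to 3.70% of UMIs, and 13 spermatocyte markers 0.0241 to 0.0323%. The lists hold different genes, so these percents do not tell the stage of the cells, and the name was not tested. The class is called the spermatocyte class below, after the authors' name. The somatic class held spermatid markers at 0.136 to 0.450%, and the GSC-like and CySC-like classes at 0.0312 to 0.148%. These ranges overlapped, but within each library the somatic class had the higher level.

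The main copies were first summed by class. The 58 main copies together took 2.37 and 2.56% (Nanos-Upd) and 2.74 and 2.90% (TrafficJam-Upd) of the UMIs of CySC-like cells. In GSC-like cells they made up 2.05 and 2.00% in the Nanos-Upd libraries and 2.20 and 2.62% in the TrafficJam-Upd libraries. The CySC-like level was the higher of the pair in every library. The mean over the 4 libraries was 2.65 ± 0.229% (SD) in CySC-like and 2.22 ± 0.280% in GSC-like cells, 1.85 ± 0.111% in the somatic class, 1.62 ± 0.264% in the spermatocyte class and 1.59 ± 0.310% in the muscle class. The somatic, spermatocyte and muscle classes overlapped in their ranges, so no order among them is given. The 13 protein-coding genes of the mitochondrial genome, which encode the other subunits of the same complexes, reached 2.93 ± 0.346% in CySC-like, 2.54 ± 0.500% in GSC-like and 1.95 ± 0.277% in spermatocyte-class cells.

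**Figure D1:**
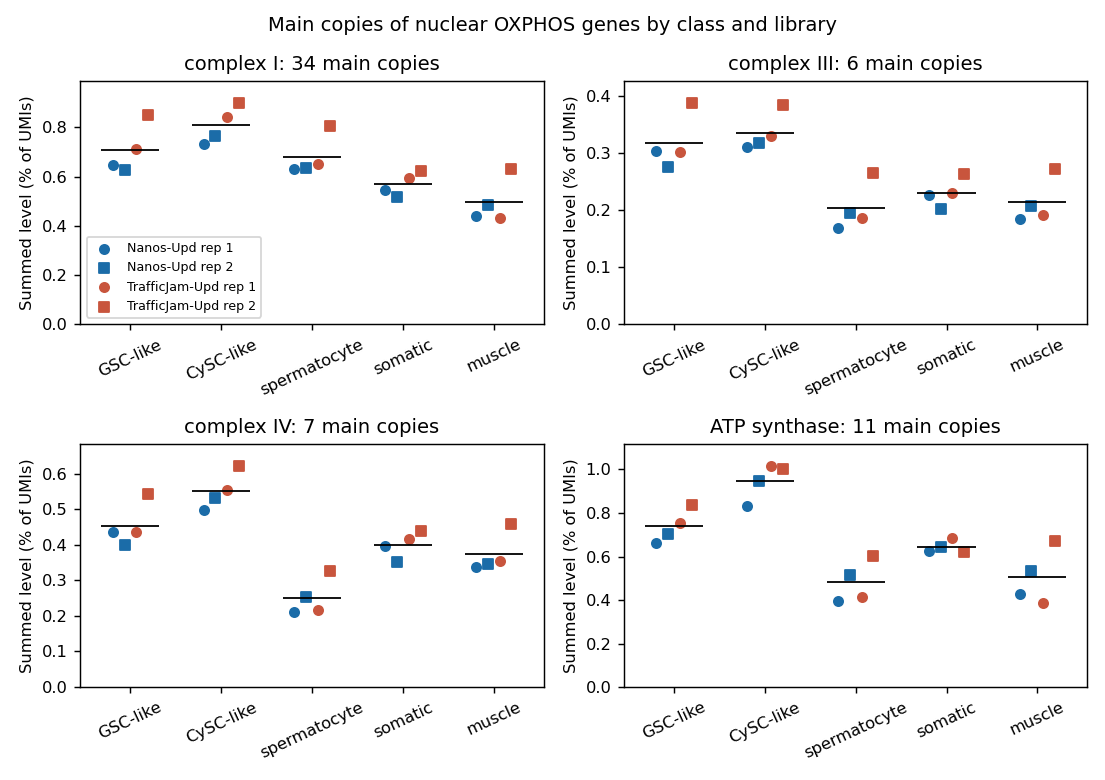
Summed level of the main copies (percent of UMIs, linear axis from 0) by class, in a panel per complex. Points are the 4 libraries, black lines their means. In complex IV the spermatocyte class sits at 0.212 to 0.325% and the CySC-like class at 0.499 to 0.622%, whereas in complex I the spermatocyte class (0.633 to 0.805%) overlaps the GSC-like class (0.626 to 0.849%).

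The most abundant main copy of each complex showed how far apart the classes were. ATPsynC encodes the subunit of the rotating membrane ring of the ATP synthase. CySC-like cells held it at 2090 and 2552 CPM (Nanos-Upd) and at 2742 and 2567 CPM (TrafficJam-Upd), and GSC-like cells at 1372, 1632, 1687 and 1734 CPM in the same order of libraries. It was 572 to 1200 CPM in the spermatocyte class, which did not overlap either of the others. UQCR-Q, a small subunit of complex III, had 885 to 1092 CPM in CySC-like cells and 942 to 1286 CPM in GSC-like cells. These ranges overlapped, and UQCR-Q was called lower in GSC-like cells after trimmed-mean scaling (-0.19 ± 0.07, edgeR adjusted p = 0.036). COX8, a small subunit of complex IV, ranged from 1039 to 1281 CPM on the cyst side, from 859 to 1295 CPM on the germline side and from 400 to 729 CPM in the spermatocyte class. ND-MLRQ, assigned to complex I by its symbol, had 950 to 1173 CPM in CySC-like cells and 475 to 645 CPM in GSC-like cells, with no overlap. ND-B12, the next most abundant main copy of complex I, had 461 to 664 CPM in the GSC-like and 438 to 598 CPM in the CySC-like class and 553 to 645 CPM in the spermatocyte class. Its CPM was higher in GSC-like than in CySC-like cells in each library, but it was called lower after trimmed-mean scaling (-0.21 ± 0.07, edgeR adjusted p = 0.025). The others next in level were UQCR-6.4, COX7C and ATPsynG, with 790 to 1306, 730 to 1036 and 739 to 1037 CPM in GSC-like cells.

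GSC-like and CySC-like cells were compared within libraries to ask how the germline and the cyst side of the tumors differ in these genes. Of the 58 main copies, 49 fell in GSC-like relative to CySC-like cells and 0 rose (edgeR quasi-likelihood test, Benjamini-Hochberg adjusted p under 0.05 over 8909 genes, library as a block). Over all genes tested 37.4% fell and 35.1% rose. The median log2 fold change of the main copies was -0.55, against -0.06 over all genes. The falls covered 27 of 34 main copies of complex I, 5 of 6 of complex III, 7 of 7 of complex IV and 10 of 11 of the ATP synthase. The largest were those of ND-MLRQ, UQCR-C1, ND-MNLL, ND-AGGG and COX6B. UQCR-C1, a core protein of complex III, stood at 237, 280, 250 and 269 CPM in the CySC-like class, the Nanos-Upd libraries first, but at 125, 153, 129 and 150 CPM in the GSC-like class. Its log2 fold change was -1.21 ± 0.08 (SE; edgeR adjusted p = 3.1e-07). The classes did not overlap in any library. COX6B, the subunit that faces the intermembrane space at the cytochrome c side of complex IV, had 674 to 843 CPM against 389 to 527 CPM. ND-MNLL was scarce, with 7.04 to 13.4 CPM against 3.88 to 8.96 CPM, and both it and COX6B overlap another gene on the same strand.

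The size of this shift depends on the scaling. GSC-like cells had the larger median UMI count, 3531 to 5014 against 2868 to 3323 in CySC-like cells. With plain CPM scaling in place of the trimmed mean of M-values, the median of all genes moved from -0.06 to 0.26 and that of the main copies from -0.55 to -0.24. The counts became 9 members higher and 33 lower, where the trimmed-mean scaling gave 1 higher and 57 lower. The distance of the main copies below the median gene was about the same in both.

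Related genes gave these counts in the same comparison. Of 9 subunits with symbols outside the rule, 9 fell, with Cyt-c1, the heme-bearing subunit of complex III, at -2.15 ± 0.09 and sun, the main copy of the ATP synthase epsilon subunit, at -1.32 ± 0.07. All 4 complex II subunits fell (SdhA, SdhB, SdhC and SdhD, -0.33 to -0.73), as did 13 of 13 genes of the mitochondrial genome (median -0.56). Of 11 genes listed for the tricarboxylic acid cycle, 9 fell, led by Mdh2 at -2.77 ± 0.09, mAcon1 at -2.0 ± 0.10 and Fum1 at -1.85 ± 0.11. The list counts Idh beside the subunits Idh3a, Idh3b and Idh3g. The regulators of mitochondrial biogenesis split: of 15 tested 6 rose and 4 fell. Those that rose most were Ant2, an ADP/ATP carrier (2.06 ± 0.14), srl, the fly homolog of the coactivator PGC-1 (1.33 ± 0.10), and PolG1, the mitochondrial DNA polymerase (0.84 ± 0.16). The other ADP/ATP carrier, sesB, fell by 2.01 on the log2 scale. The level of sesB was 262 to 434 CPM on the germline side and 908 to 1339 CPM on the cyst side, and that of Ant2 was 157 to 330 and 39.2 to 58.1 CPM. Among 3 assembly factors tested, Sirup fell (-3.05 ± 0.13), and Scox and Surf1 were not called.

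Chromosomes were compared because the X has a special state in the fly germline. The 12 main copies on the X had a median log2 fold change of -0.89, and the 46 on the autosomes had -0.49. Over all genes tested the medians were -0.30 for the X and -0.0041 for the autosomes. Both sets of main copies thus had lower medians than the other genes of their chromosomes.

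**Figure D2:**
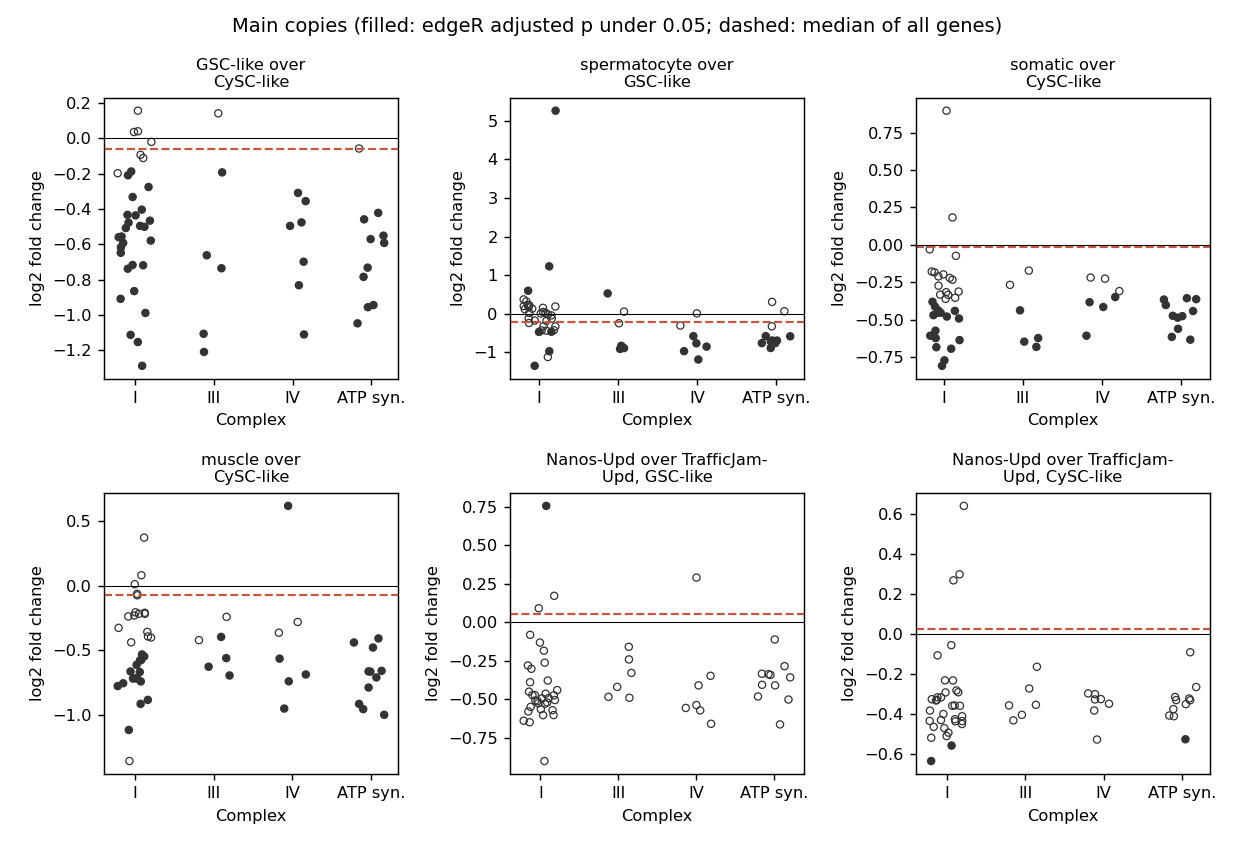
Log2 fold changes (edgeR) of the main copies by complex, in a panel per comparison with its own linear axis. Filled points passed an adjusted p of 0.05, and the dashed line is the median of all genes tested. In the comparison of GSC-like with CySC-like cells 49 of 58 points are filled, all below 0, and in the spermatocyte panel ND-B8 stands alone at 5.26.

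The somatic and muscle classes were set against CySC-like cells. In the somatic class 36 of 58 main copies fell and 0 rose, with a median of -0.41 against -0.02 over all genes. Of all genes tested 10.1% fell and 14.8% rose. All 11 main copies of the ATP synthase fell, and 17 of 34 of complex I. The largest falls were in ND-B14 (-0.81 ± 0.14), ND-19 (-0.77 ± 0.16), ND-B15 (-0.69 ± 0.13), ND-23 (-0.68 ± 0.16) and UQCR-C1 (-0.68 ± 0.14). Of the paralogs, 11 of 21 passed the filter on low counts and 0 were called in edgeR. Spermatid markers were higher in this class, as given above, and their part in the result was not tested.

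In the muscle class 36 main copies fell and 1 rose, with a median of -0.57 against -0.07 over all genes. Of all genes tested 13.2% fell and 15.0% rose. The 11 ATP synthase main copies fell again, ATPsynbeta, the catalytic subunit, by 1.00 and ATPsynC by 0.95 on the log2 scale. ND-19 (-1.11 ± 0.18), COX8 (-0.95 ± 0.13) and ATPsyndelta (-0.91 ± 0.16) completed the largest falls. COX7A, a small subunit of complex IV, was the main copy that rose. It had 997, 857, 1357 and 1002 CPM in muscle cells of the 4 libraries and 709, 756, 819 and 830 CPM in CySC-like cells, with no overlap (log2 fold change 0.62 ± 0.14, edgeR adjusted p = 0.0016). ATPsynepsilonL was also called higher in muscle (0.63 ± 0.19), but leaving out Nanos-Upd replicate 2 (adjusted p = 0.14) or TrafficJam-Upd replicate 2 (adjusted p = 0.14), DESeq2 (0.056) and other scalings ended that call.

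In the spermatocyte class, 20 of 21 paralogs rose relative to GSC-like cells and 1 fell. Over all genes tested 33.2% rose and 32.6% fell. The median of the paralogs was 5.89 on the log2 scale, and all 14 that form a pair with a member rose. Paralogs scarce in GSC-like cells could pass the filter on low counts only through the spermatocyte class. COX7AL2 and ND-51L2, for example, did not pass it in the fits of GSC-like and CySC-like sums. For such genes the filter set the direction, so their rises add no support to the count or the median. The largest changes were those of COX7CL (6.64 ± 0.41), UQCR-6.4L (6.55 ± 0.42), COX5BL (6.49 ± 0.46), UQCR-11L (6.48 ± 0.33) and COX6CL (6.43 ± 0.41). COX4L, the paralog of the regulatory complex IV subunit COX4, had the highest level of the paralogs, with 797 and 606 CPM in the Nanos-Upd and 635 and 444 CPM in the TrafficJam-Upd libraries. In GSC-like cells it had 26.4, 13.2, 6.43 and 11.4 CPM. COX7AL had 363 to 601 CPM and COX7CL 358 to 623 CPM in the spermatocyte class, and neither passed 15.1 CPM in GSC-like cells. ND-20L, ND-24L and ND-49L, paralogs of iron-sulfur or core subunits of complex I, were lower, at 55.1 to 104, 67.9 to 145 and 26.2 to 64.0 CPM. The least abundant were ATPsynbetaL (25.6 to 37.2 CPM), ND-51L2 (10.2 to 35.6 CPM) and COX7AL2 (5.51 to 28.7 CPM). ATPsynbetaL also had the smallest of the 20 rises, at 2.15 ± 0.31.

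**Figure D3:**
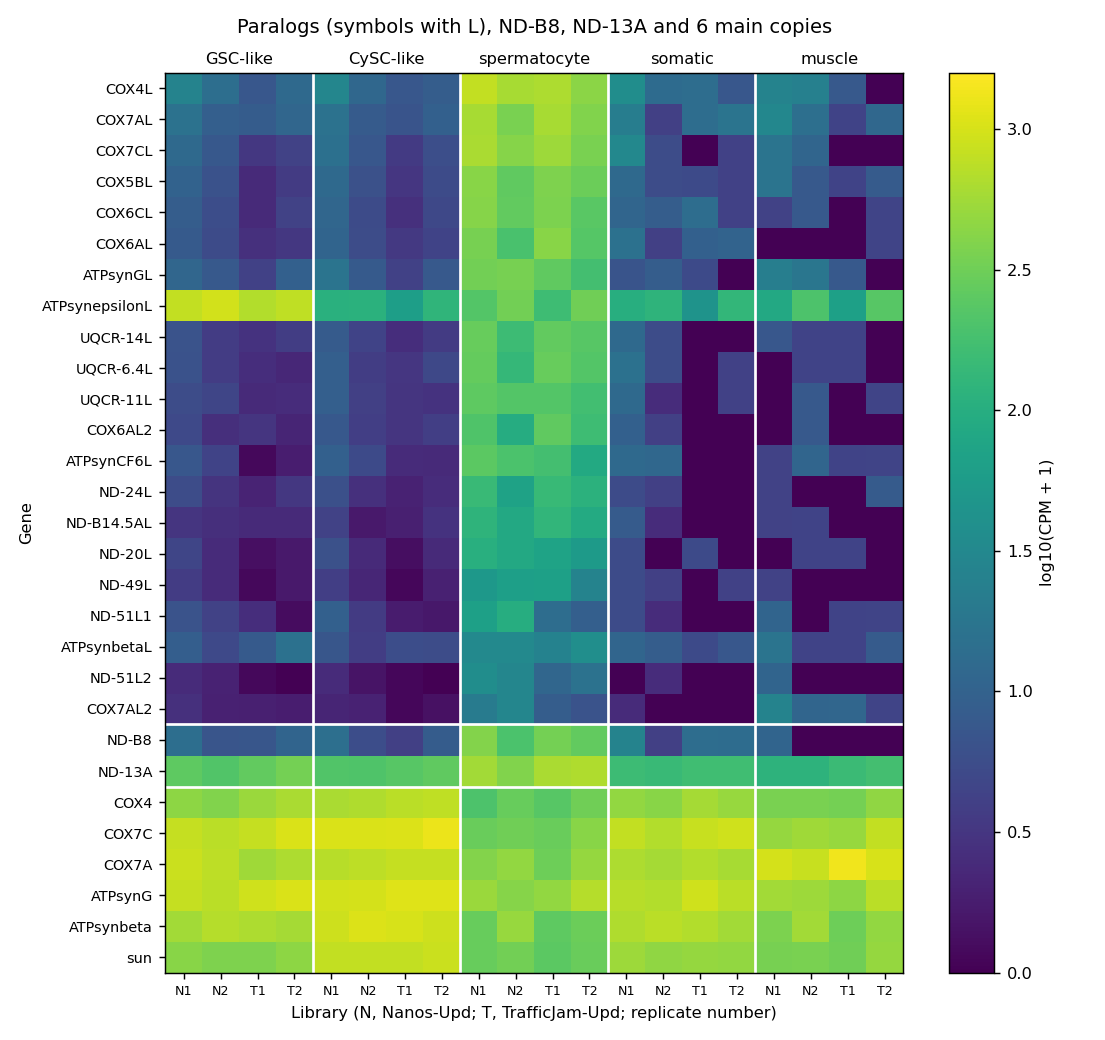
Level of the 21 paralogs, of ND-B8 and ND-13A, and of 6 main copies (rows) in the 20 sums of a class in a library (columns), as log10 of CPM plus 1. The paralogs are bright in the spermatocyte class, where COX4L reaches 797 CPM, except ATPsynepsilonL, which is brightest in the GSC-like class at 671 to 956 CPM.

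Summed without ATPsynepsilonL, the 20 paralogs made up 0.335 to 0.539% of UMIs in the spermatocyte class and 0.00419 to 0.0224% in the other classes. Cells were thinned to 2200 UMIs to compare detection at 1 depth. Then 88.0 to 96.8% of spermatocyte-class cells had a UMI of the 20 paralogs, against 9.03 to 26.7% of GSC-like, 8.54 to 31.3% of CySC-like, 13.3 to 34.7% of somatic and 6.02 to 42.9% of muscle cells. Before thinning the shares were 94.3 to 98.4% in the spermatocyte class and 10.8 to 53.6% over the other classes. Within libraries, the GSC-like share was below the muscle share in Nanos-Upd (26.7 against 42.9% and 16.7 against 22.6%) and above it in TrafficJam-Upd (9.03 against 6.02% and 12.6 against 10.3%). The muscle sums held 78 to 84 cells each. The ratio of the 20 paralogs to the 13 spermatid markers was 12.3 to 15.3% in GSC-like, 9.49 to 11.98% in CySC-like, 12.7 to 19.2% in muscle and 13.2 to 23.8% in spermatocyte-class cells. In the somatic class it was lower, at 1.27 to 8.24%. The part of free RNA in the levels outside the spermatocyte class was not tested, and no expression there is read from them. This covers the 8 paralogs called lower in GSC-like than in CySC-like cells among the 17 that passed the filter there (-0.53 to -1.01).

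ATPsynepsilonL, the paralog of the epsilon subunit of the ATP synthase stalk, was the exception in both comparisons. Its level was 807, 956, 671 and 787 CPM in the GSC-like class of the 4 libraries, Nanos-Upd first. The CySC-like class had 107, 110, 61.1 and 124 CPM, and the spermatocyte class 217, 326, 159 and 320 CPM. GSC-like cells overlapped neither of the others. It rose by 2.72 ± 0.12 in GSC-like over CySC-like cells (edgeR adjusted p = 8.4e-08) and fell by 1.53 in the spermatocyte class relative to GSC-like cells (SE 0.18, adjusted p = 4.5e-05). After thinning, 69.4 to 77.4% of GSC-like cells had a UMI of it, against 11.8 to 21.9% of CySC-like and 13.3 to 28.2% of muscle cells. In GSC-like cells it accounted for 65.9 ± 3.71% of the UMIs of itself and sun, and in the spermatocyte class for 46.0 ± 6.06%. Cyt-c1L, a paralog of Cyt-c1 outside the rule, was likewise higher in GSC-like than in CySC-like cells (84.0 to 104 against 10.2 to 20.8 CPM, 2.36 ± 0.23), but it rose further in the spermatocyte class (132 to 187 CPM, 0.95 ± 0.21).

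The main copies were compared between the same classes. The classes differed in ribosomal UMIs, whose median per cell was 10.6 to 18.8% in the spermatocyte class and 29.3 to 36.6% in GSC-like cells, and the part of this in the result was not tested. In the spermatocyte class 20 of 58 fell and 4 rose relative to GSC-like cells, where 32.6% of all genes tested fell and 33.2% rose, so the falls were near the share of all genes, and their median of -0.24 was close to that of all genes (-0.22). By complex the falls numbered 4 of 34 in complex I, 3 of 6 in complex III, 5 of 7 in complex IV and 8 of 11 in the ATP synthase, and the difference between complexes was not tested. ND-49 (-1.35 ± 0.27), COX7C (-1.18 ± 0.15), COX5B (-0.97 ± 0.17), ND-51 (-0.97 ± 0.29) and UQCR-11 (-0.91 ± 0.18) fell most. Each of these has a paralog that rose. COX7C stood at 828, 730, 822 and 1036 CPM in the GSC-like class and at 290, 324, 297 and 431 CPM in the spermatocyte class, without overlap. Among the main copies of the other pairs, COX4, COX7A, UQCR-14, UQCR-6.4, ATPsynG, ATPsynCF6 and ATPsynbeta also fell (-0.58 to -0.89). ND-20, ND-24 and ND-B14.5A were not called, at -0.43 ± 0.21, -0.24 ± 0.19 and 0.05 ± 0.20. ND-20 was called lower under 5 other settings: -0.83 without a filter (adjusted p = 0.0094), -0.67 without Nanos-Upd replicate 2 (0.026), -0.59 without mixed cells (0.040), -0.63 with at least 3000 UMIs (0.028) and -0.59 with plain CPM scaling (0.047). ND-24 was called lower without a filter (-0.64, adjusted p = 0.045), and the sign of ND-B14.5A turned under other settings. The call of ND-51 ended without Nanos-Upd replicate 1 (adjusted p = 0.084), as did that of COX7A (adjusted p = 0.068), and that of ATPsynG without the library block (adjusted p = 0.081).

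The main copies that rose were ND-B8, ND-13A, ND-ASHI and UQCR-C1. ND-B8, a small subunit of complex I on 2L (4454626 to 4455207, + strand, dm6), behaved like a paralog although its symbol has no L, and it was singled out after its values were seen. It had 402 and 193 CPM in the Nanos-Upd and 335 and 269 CPM in the TrafficJam-Upd libraries, against 5.98 to 13.3 CPM in the GSC-like class and 3.00 to 13.5 CPM in the CySC-like class (5.26 ± 0.27 over GSC-like cells, adjusted p = 9.7e-07). In muscle 3 of 4 libraries were at 0. After thinning, 31.1 to 54.3% of spermatocyte-class cells and 0.983 to 2.74% of GSC-like cells had a UMI of ND-B8. The gene overlaps Gs1l on the opposite strand, and how strand was used in counting is not given in the sources used here. ND-13A, an accessory subunit of complex I, had 392 to 651 CPM in the spermatocyte class but was also well expressed in GSC-like cells (215 to 334 CPM, 1.23 ± 0.19). ND-ASHI (0.60 ± 0.19) and UQCR-C1 (0.53 ± 0.18) rose by less.

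Related genes of the pathway went both ways. The 4 paralogs of electron carriers and complex II outside the rule all rose, Cyt-c-d, the testis cytochrome c, from 8.75 to 29.7 CPM in GSC-like cells to 535 to 822 CPM (5.46 ± 0.37), SdhBL by 6.19 ± 0.42 and SdhAL by 5.83 ± 0.42. The main cytochrome c, Cyt-c-p, fell by 1.23 (SE 0.19). In complex II, SdhD (1.25 ± 0.26) and SdhA (0.79 ± 0.21) rose and SdhB fell by 1.26 (SE 0.24). Of 13 genes of the mitochondrial genome, 1 rose (mt:ATPase6, 0.39 ± 0.15) and 4 fell (mt:ND3, mt:CoII, mt:CoI and mt:CoIII, -0.30 to -0.59). In the list for the tricarboxylic acid cycle ScsbetaA (1.68 ± 0.19), Idh (1.36 ± 0.20) and Idh3b (1.34 ± 0.23) rose, while Scsalpha1, Idh3a and kdn fell (-0.83 to -1.25). Of the regulators, 4 rose, led by fzo, the mitofusin of the spermatid (3.00 ± 0.39), park (1.38 ± 0.24) and Ant2 (0.91 ± 0.24), and 7 of 15 fell, led by srl (-2.10 ± 0.21).

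The weight of the paralogs against their main copies was expressed as the percent of paralog UMIs among the UMIs of both. Over the 14 pairs together this share was 58.2 and 43.7% in the spermatocyte class of the Nanos-Upd libraries and 55.4 and 36.7% in that of the TrafficJam-Upd libraries. Replicate 1 of either tumor type was the higher one. The share was 0.525 to 1.66% in GSC-like, 0.400 to 1.79% in CySC-like, 0.666 to 3.04% in somatic and 0.594 to 2.93% in muscle cells. The spermatocyte class exceeded the GSC-like class by 47.5 ± 9.88 percentage points (SD, n = 4 libraries). Flipping the signs of the 4 differences (exact permutation test, two-sided) gave p = 0.13, the smallest that 4 libraries allow, with 4 of 4 libraries in the same direction. Taken pair by pair, the mean share passed 50% in 9 of 14. It was highest for COX4L (69.8 ± 9.36%), UQCR-14L (59.2%), ND-49L (59.1 ± 18.4%), COX7CL (58.5 ± 10.1%) and COX5BL (57.1 ± 9.40%). Those of ND-24L, COX7AL, ND-20L and UQCR-11L lay between 50.9 and 53.4%, and that of ND-B14.5AL was 48.8 ± 8.64%. The ATP synthase pairs were lower, with 34.7% for ATPsynGL, 34.6% for ATPsynCF6L and 8.94% for ATPsynbetaL, as was UQCR-6.4L with 32.3%. The spread over libraries was wide, so neighbours in this order do not differ beyond it.

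**Figure D4:**
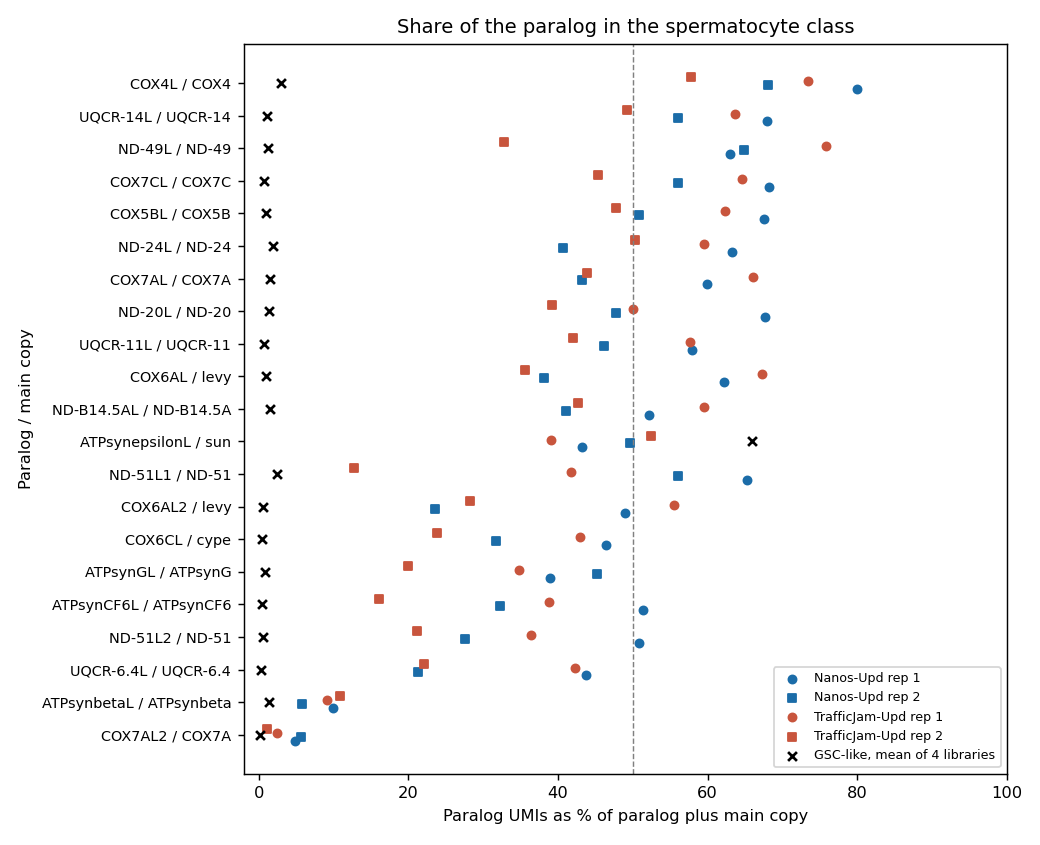
Paralog UMIs as percent of paralog plus main copy in the spermatocyte class, for all 21 paralogs (rows, by mean). Colored points are the 4 libraries, crosses the mean of the GSC-like class, and the dashed line marks 50%. COX4L lies at 57.8 to 80.0%, ATPsynbetaL at 5.83 to 10.9%, and ATPsynepsilonL is the pair whose GSC-like cross lies to the right of its points.

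The share also varied from cell to cell within the spermatocyte class. Among cells with at least 10 UMIs over the 14 pairs, its median was 62.5% in Nanos-Upd replicate 1 (236 cells), 37.3% in Nanos-Upd replicate 2 (106 cells), 69.2% in TrafficJam-Upd replicate 1 (90 cells) and 30.8% in TrafficJam-Upd replicate 2 (173 cells). Cells were spread over the whole range: in TrafficJam-Upd replicate 2 the quartiles were 7.69 and 73.1%. Split by this share, 93 cells lay under 10%, 170 from 10 to under 50% and 342 at or above 50%. Spermatid markers were higher in each further range, from 2545 to 7101 CPM over the libraries in the first range, through 9009 to 22976 CPM, to 27097 to 48245 CPM in the last. Early germline markers went the other way, with 1298 to 3156, 923 to 1753 and 267 to 812 CPM. Spermatocyte markers had 72.0 to 489, 306 to 520 and 155 to 292 CPM, with no common order over the libraries. These ranges were cut from the share itself and are not cell types, and the marker levels are a description with no test.

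**Figure D5:**
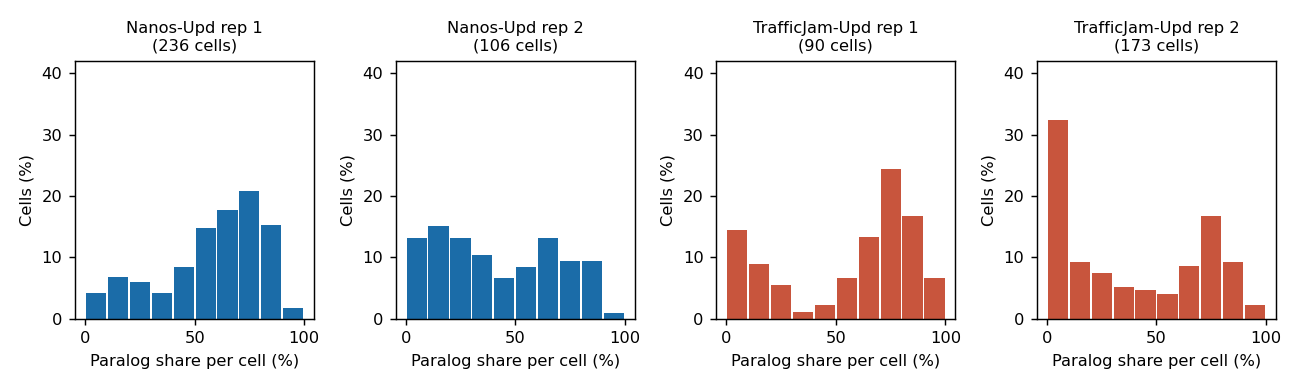
Share of paralog UMIs per cell over the 14 pairs (percent, bins of 10) against the percent of spermatocyte-class cells, in a panel per library. TrafficJam-Upd replicate 2 has its tallest bar under 10% and a second peak in the bins from 70%, and Nanos-Upd replicate 1 has most cells above 50% (70.3%).

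The positions of the genes were compared in the dm6 assembly. Of the 58 main copies 12 lie on the X, and of the 21 paralogs 0. The pairs with an X-linked main copy are ND-24 and ND-24L (3L), ND-20 and ND-20L (3R), ND-B14.5A and ND-B14.5AL (3L), and UQCR-14 and UQCR-14L (3R). On chromosome 4 lie ND-49 and ATPsynbeta, whose paralogs are on 3R and 3L. Other pairs sit side by side. COX5B ends at position 6559308 of 2L and COX5BL begins at 6559431 on the same strand. COX7C ends at 10050066 of 2R and COX7CL begins at 10050348, and COX7A and COX7AL lie next to each other on 3R on opposite strands (8339944 to 8341043 and 8343669 to 8344310). COX5BL and COX7CL nevertheless rose by more than 6 on the log2 scale while their neighbours COX5B and COX7C fell, and reads that run between such neighbours could not be examined. A transcript with a single exon is annotated for 8 of 21 paralogs and for 4 of 58 main copies. Another gene overlaps on the same strand in 6 paralogs (UQCR-11L, ND-51L1, ND-51L2, COX6AL, COX6AL2 and ATPsynCF6L) and 5 main copies (ND-MNLL, ND-15, ND-MWFE, UQCR-Q and COX6B), so their counts are less certain.

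Nanos-Upd and TrafficJam-Upd tumors were compared within each class, with 2 libraries a side. In GSC-like cells 2 members were called, both higher in Nanos-Upd, against 3.12% of all genes in either direction. ND-51, the subunit of complex I that binds NADH, had 122 and 133 CPM in Nanos-Upd and 68.0 and 67.7 CPM in TrafficJam-Upd cells (0.76 ± 0.18, edgeR adjusted p = 0.035). ATPsynCF6L (3.04 ± 0.74) had 6.29 and 3.37 against 0.179 and 0.779 CPM, which are among the low levels outside the spermatocyte class described above. Neither call held under every setting. That of ND-51 ended without Nanos-Upd replicate 2 (adjusted p = 0.057) and without either TrafficJam-Upd library (0.14 and 0.097), and both ended with cells of at least 3000 UMIs.

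The other main copies of GSC-like cells mostly lay below 0 without passing the test. Their median log2 fold change, Nanos-Upd over TrafficJam-Upd, was -0.47 against 0.05 over all genes, and 54 of 58 were below 0. In 49 of 58 both Nanos-Upd libraries were under both TrafficJam-Upd libraries, where 27.6% of all genes tested had that order. Single libraries moved this. Without TrafficJam-Upd replicate 2 the median was -0.24. Without TrafficJam-Upd replicate 1 it was -0.69, and without Nanos-Upd replicate 2 it was -0.40. The members called, which include paralogs, also changed in number and direction. In CySC-like cells 3 members fell in Nanos-Upd, against 2.84% of genes called in either direction: ND-13B (-0.64 ± 0.11), ND-18 (-0.56 ± 0.12) and ATPsynF (-0.53 ± 0.11). ND-13B had 198 and 208 CPM against 286 and 279 CPM. The median of the main copies was -0.35 against 0.02, and 52 of 58 were lower in both Nanos-Upd libraries than in both TrafficJam-Upd libraries, against 30.2% of all genes. All 3 calls ended without TrafficJam-Upd replicate 2 and with plain CPM scaling, which moved the median to -0.19, and that of ND-18 also without Nanos-Upd replicate 1 (adjusted p = 0.055). Leaving out other single libraries also changed the number and direction of the members called, paralogs included. The genes of the mitochondrial genome did not share this direction. In GSC-like cells 0 of 13 were below 0 (median 0.25) and in CySC-like cells 1 of 13 (median 0.14), with 0 called in edgeR in either class.

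Other measures moved with tumor type. The median percent of ribosomal UMIs per GSC-like cell was lower in Nanos-Upd (31.6 and 29.3) than in TrafficJam-Upd (33.8 and 36.6), as it was per CySC-like cell (29.1 and 27.2 against 31.8 and 33.3). With ribosomal protein and mitochondrial-genome UMIs left out of the counts, the median of the main copies was -0.55 for GSC-like cells and -0.35 for CySC-like cells. The part of the ribosomal share in the values of the main copies was not tested. Of the paralogs that passed the filter, all but 1 of 19 in GSC-like and 1 of 17 in CySC-like cells had values above 0 (medians 1.2 and 1.18). ATPsynCF6L in GSC-like cells was the call among them. Scarce paralogs could pass this filter through the Nanos-Upd libraries only, so these counts and medians do not establish a direction. The 13 spermatid markers were also higher in Nanos-Upd, with 0.116 and 0.0607% against 0.0312 and 0.0459% in GSC-like cells. The part of free spermatid RNA in this was not tested.

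In the spermatocyte class 1 member was called between the tumor types, against 0.669% of genes. ND-51L1 had 64.8 and 96.6 CPM in Nanos-Upd and 12.8 and 8.27 CPM in TrafficJam-Upd libraries (2.83 ± 0.59, edgeR adjusted p = 0.00098), a gene that overlaps Smurf on the same strand. The call ended without TrafficJam-Upd replicate 1 (adjusted p = 0.094) and without TrafficJam-Upd replicate 2 (0.89). Whether the difference between GSC-like and CySC-like cells itself differed by tumor type was tested as an interaction. It gave 0 called members in edgeR, with 3 at an unadjusted p under 0.05 and 0 called in DESeq2, against 1.35% of all genes called in edgeR.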

How the data were processed

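Testis tumors were dissociated and sequenced on the 10x Genomics platform, per the labels. The authors deposited a table of raw UMI counts per gene and cell and a table of cell annotations, which gives each cell's library and class and the percent of mitochondrial and ribosomal UMIs as computed by the authors. Cell Ranger 7.0.0, Seurat 5.0.3 and the build dm6 are named in the submitters' processing notes. In the deposited table, cells had 2200 to 7499 UMIs, less than 10% mitochondrial and at most 40% ribosomal UMIs. How classes were assigned and whether doublets were removed is not given in the sources used here, and no doublet caller was run. An alternative dropped mixed cells, those with at least 2 early germline and 2 cyst lineage markers. Such cells made up 29.6% of GSC-like, 26.1% of CySC-like, 17.6% of spermatocyte-class, 21.9% of somatic and 32.5% of muscle cells. Embedding scores deposited beside them by the authors were not used.

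Counts were summed by class and library, and libraries were the replicates. Sums were tested over all genes in R 4.3.3 with the quasi-likelihood fit of edgeR 4.0.16 (robust, TMM, filterByExpr), with a Benjamini-Hochberg adjusted p under 0.05. The fits of classes held a term for the library, those of tumor types none, and the interaction nested libraries in tumor type. Standard errors follow from the F statistic. The fits were tested on simulated data. Alternatives were DESeq2 1.42.0, RLE size factors, no filter, each library left out, no mixed cells, at least 3000 UMIs, no mitochondrial-genome and ribosomal UMIs, other blocks, all 5 classes in a single fit, and, added after the data were seen, plain CPM scaling and crossed replicate numbers. FlyBase identifiers gave the positions, read from Ensembl release 115 (BDGP6.54). Sums and figures were made in Python 3.11.15 with pandas 2.3.3 and matplotlib 3.10.9.

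The members and the lists were chosen with earlier results of these data known. Named are all paralogs with an L and their main copies, the 5 called members with the largest change in each direction per comparison, the 2 most abundant main copies per complex, and from related lists the called genes (at most 3 each way in lists over 10). Exceptions chosen after their values were seen are the details of ND-B8, ND-13A, ATPsynF and COX7A. Sequences are not shown.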

Additional observations from a re-analysis of the deposited data

How the results depend on the processing

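In the comparisons of GSC-like, somatic and muscle cells with CySC-like cells, most called members were lower under each alternative run, with plain CPM scaling giving 9 higher and 33 lower for GSC-like cells. The 58 members called between GSC-like and CySC-like cells became 35 without the library block and 37 with all 5 classes in a single fit. The 36 of the somatic class became 23 with DESeq2 and 16 without the block. In the spermatocyte class 40 to 53 members were called, and the excess in paralog share stayed at 44.5 to 51.7 percentage points. The comparisons of tumor types rest on 2 libraries a side and moved most. In GSC-like cells (2 called) DESeq2 called 8, no filter 13, no mixed cells 4 and at least 3000 UMIs 0, and leaving out a library gave 2 to 19. In CySC-like cells (3 called) DESeq2 called 18, no filter 36, no mixed cells 13 and plain CPM scaling 0, and leaving out a library gave 0 to 17. In the spermatocyte class (1 called) leaving out a library gave 0 to 1. The interaction (0 called) gave 1 without mixed cells and 1 with plain CPM scaling, and 0 to 1 when a library was left out. The labels do not pair same-numbered replicates, and with 2 pairs the data do not settle it: the correlation of their deviations was -0.16 in GSC-like, -0.11 in CySC-like and 0.53 in spermatocyte-class sums. With the replicate number as a block 2, 0 and 1 members were called in these classes and 0 in the interaction, and with the numbers crossed 50, 10 and 0. The share of all genes called is given for the main fits only. The counts of members under other settings are therefore not compared with all genes. Of single genes, ND-B14.5A in the spermatocyte class (0.05, not called) changed sign under 8 settings: -0.36 without filter, -0.068 without mixed cells, -0.064 with at least 3000 UMIs, -0.052 without mitochondrial-genome and ribosomal UMIs and -0.12 with plain CPM scaling, while leaving out a library gave -0.14 to 0.076. Over 65 single-gene results, 791 repeats kept call and direction, 32 lost and 10 gained the call. The causes were not tested. Depth limits the somatic and muscle sums, where few paralogs passed the filter.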
